A study of Mus musculus with 30 samples.

Results

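Cholesterol and fatty acid synthesis was followed through 35 genes of the sterol regulatory element-binding protein (SREBP) pathway, taken from a list of gene symbols. They were 5 genes that control SREBP activity, 7 enzymes that build farnesyl diphosphate from acetoacetyl-CoA, 11 enzymes that turn farnesyl diphosphate into squalene and cholesterol, the sterol transfer gene *Stard4*, 9 genes of fatty acid synthesis and desaturation, and 2 sterol efflux genes switched on by the liver X receptors (LXR). All 35 were present in the heart table of 20764 genes and in the cell table of 54532 genes. In hearts all 35 passed the filter on low counts (an average count over 5), and in cells 34 passed, the exception being *Abcg1*.

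RNA was sequenced from 18 hearts of female C57BL6 mice, 3 in each of 6 groups, all fed chow freely under an alternating light and dark cycle. Young mice were 2 months old and drank plain water. Old mice were 12 months old and drank either plain water (old H2O) or water with 3 g/L nicotinamide riboside (old NR), a precursor of the cofactor NAD+. Supplementation began in young adulthood, as the methods describe. Each kind of mouse was collected at ZT10 (day) or ZT22 (night), where ZT counts hours from lights on, so that a mouse gave only 1 time point and the light phase at collection differed between the times. The methods describe the C57BL6 background as a mixture of J and N substrains. A further 12 libraries came from HL-1, a single mouse cardiac muscle line derived from an atrial tumour, with 3 libraries each for untreated cells, cells given FK866 (an inhibitor of NAMPT, the enzyme of NAD+ salvage), FK866 with NR, and FK866 with NR and Ex527 (an inhibitor of the NAD+-dependent deacetylase SIRT1). Every treated group thus carried FK866, and NR was never given to cells without it.

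SREBP proteins are made as precursors in the membrane of the endoplasmic reticulum. When sterols are scarce, SCAP escorts them to the Golgi, where they are cut and the released part travels to the nucleus and binds sterol regulatory elements. When sterols are plentiful, INSIG1 and INSIG2 hold SCAP back. SREBP-2 (*Srebf2*) drives mainly cholesterol synthesis and SREBP-1 (*Srebf1*) mainly fatty acid synthesis and desaturation, while LXR senses oxysterols and raises *Abca1*, *Abcg1* and *Srebf1*. The adult heart burns fatty acids taken from the blood and makes few of its own, while desaturases and sterol enzymes supply lipids for its membranes.

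Promoters were read from RefSeq (build GRCm38.p6), as 300 bases running from 250 before to 50 after the annotated start. Entries were found for 27 of the 35 genes, with 35 start sites between them. Both strands were searched for the sterol regulatory element core TCACNCCAC, the E-box CACGTG, the CCAAT box and the D-box TTATGTAA. *Hmgcs1* is shown because it alone held the sterol regulatory element core, and *Hsd17b7* because it was called in more heart comparisons than any other of the 35 genes, a choice made after its values were seen. Capitals mark every match of the first 3 motifs, written ATTGG where the CCAAT box lies on the other strand, and no 2 matches overlap.
Hmgcs1, chr13:119690101-119690400, plus strand: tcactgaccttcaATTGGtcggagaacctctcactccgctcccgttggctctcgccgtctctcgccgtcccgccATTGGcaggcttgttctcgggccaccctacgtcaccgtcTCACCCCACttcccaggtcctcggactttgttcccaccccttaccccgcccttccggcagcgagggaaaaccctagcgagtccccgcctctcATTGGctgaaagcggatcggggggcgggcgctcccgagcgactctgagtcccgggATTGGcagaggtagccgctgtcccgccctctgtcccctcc
Hsd17b7, chr1:169969156-169969455, minus strand: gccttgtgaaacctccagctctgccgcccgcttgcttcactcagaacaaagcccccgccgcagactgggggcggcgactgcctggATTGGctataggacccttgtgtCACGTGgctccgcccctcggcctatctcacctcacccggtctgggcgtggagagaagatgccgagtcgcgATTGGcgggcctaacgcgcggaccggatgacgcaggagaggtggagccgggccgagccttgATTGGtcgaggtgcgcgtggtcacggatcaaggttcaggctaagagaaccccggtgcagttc
In *Hmgcs1* the sterol regulatory element core began 137 bases before the start, and in *Hsd17b7* the E-box began 143 bases before it. The sterol regulatory element core was present in 1 of 35 promoters (2.86%) of these genes and in 1.24% of all 32851 promoters. The E-box was present in 7 of 35 (20%), belonging to *Abca1*, *Dhcr7*, *Hsd17b7*, *Insig1*, *Sc5d* and *Scap*, and in 7.15% of all promoters. The CCAAT box was present in 22 of 35 (62.9%) against 37.4% of all promoters, and the D-box in none of the 35 against 0.938%. These letters are a description of the sequence and not a measure of binding.

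Total counts ranged from 3922137 to 7562215 per heart and from 21337922 to 35000109 per cell library. Cardiomyocyte markers (*Myh6*, *Tnnt2*, *Actn2*, *Ryr2*, *Tnni3*, *Myl2*) summed to between 5031 and 7495 CPM (each gene's reads scaled to a common library total) in hearts. In the libraries labelled HL-1 the same sum lay between 0.262 and 4.50 CPM, with *Myl2* at 0 in 12 of 12 libraries, *Actn2* at 0 in 11 and the atrial gene *Sln* at 0 in 11. The data thus go against the label of a cardiac muscle line, and these are called the labelled HL-1 cells. Replicate 1 of FK866 with NR stood apart among them, with 3.57 CPM of *Ryr2*, 10.2 of *Ttr*, 9.60 of *Lyz2* and 1.21 of *Abcg1*, genes at or near 0 in nearly all other cell libraries. In hearts, replicates 1 and 3 of old NR at ZT10 differed by little more than sampling noise (chi-square per degree of freedom 1.06 over 15447 genes, p = 2.44e-07, against 1.65 to 6.14 for the other pairs). Time calls in old NR hearts and the NR interaction are also given with both added into 1 library.

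Levels are given as CPM after TMM scaling. Divided by exon length, the most abundant of the genes in hearts was *Insig2* at 32.2 ± 1.58 CPM per kilobase (SD, n = 18). *Acly*, which makes cytosolic acetyl-CoA from citrate, followed at 19.3 ± 1.12. The desaturase *Fads1* (16.9 ± 1.92), the HMG-CoA synthase *Hmgcs1* (16.2 ± 1.61), the squalene synthase *Fdft1* (15.1 ± 2.01) and the desaturase *Fads2* (14.6 ± 1.91) followed within each other's spread. Lengths were those given with the cell counts, 1508 bases for *Fads2* and 3456 for *Fads1*. The annotated transcripts of these 2 genes hold 3291 and 5083 distinct stretches of 72 bases. Their levels per kilobase, and so their places in the order in hearts and cells, are uncertain and may be too high. At the low end were *Fdps* at 0.372 ± 0.143, *Idi1* at 0.551 ± 0.154, the elongase *Elovl6* at 0.784 ± 0.267, *Sqle* at 0.961 ± 0.257 and *Lss* at 1.04 ± 0.213. Over the 18 hearts the range of *Fdps* lay wholly below those of *Sqle* and *Lss*, while each of the other neighbors in this order overlapped. The place of *Lss* rests on its length of 10787 bases, against 5546 for *Sqle*. Before division by length its median was 11.4 CPM, against 5.23 for *Sqle*. Reads of *Fdps* (23.7% of its 72-base windows) and *Idi1* (16.9%) occur in other annotated genes as well, so their low levels are uncertain. The same holds for *Acaca* (27.1%), which was at 1.35 ± 0.243 CPM per kilobase in hearts. The order was different in the untreated labelled HL-1 cells, where the desaturases led. *Scd2* was at 442 ± 13.8 CPM per kilobase (SD, n = 3), *Fads2* at 305 ± 17.3, *Fads1* at 199.9 ± 5.81 and *Scd1* at 111 ± 3.13. *Abcg1* was at 0 in the 3 untreated libraries. The heart and cell tables were made separately, and no test was run between them.

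In hearts, each comparison between 2 groups was read from a single edgeR quasi-likelihood fit over 18 hearts, and calls required a Benjamini-Hochberg adjusted p under 0.05 over 15443 genes. In young hearts 5 of 35 genes were called between ZT10 and ZT22, where 14.4% of all genes tested were. In old H2O hearts 5 of 35 were called against 4.2% of all genes. Among old NR hearts the count was 2 of 35 against 5.37%. There 9 changes were positive and 26 negative (lower at ZT10), with a median log2 fold change of -0.15 against -0.01 over all genes. In young hearts 19 were positive and 16 negative, and in old H2O hearts 16 and 19. An unadjusted p under 0.05 was reached by 11, 8 and 15 of the 35 in young, old H2O and old NR hearts. The directions were not tested as a set. Between old H2O and young hearts 1 of 35 was called at ZT10 (5.87% of all genes), 3 at ZT22 (14.1%), and 0 for the mean of both times (11.8%), where 7 had an unadjusted p under 0.05. Between old NR and old H2O hearts 0 were called at ZT10 (0.285%), at ZT22 (0.35%) and for the mean of both times (0.337%), while 3, 6 and 4 had an unadjusted p under 0.05. DESeq2 also called 0 in these and in the age mean, except for *Hsd17b7* with NR at ZT22. Leaving out a heart added calls for the age mean without old H2O ZT22 replicate 1 (*Hmgcs1*), young ZT10 replicate 2 (*Fads1*) or 3 (*Ebp*), or young ZT22 replicate 1 (*Ebp*). For NR at ZT22 it added *Hmgcs1* and *Hsd17b7* without old H2O ZT22 replicate 1. The change of the day-night difference with age was called in 2 of 35 genes (6.89% of all genes), and its change with NR in 1 of 35 (0.343%). The share of these genes called was near or below that of all genes in young hearts, in the age comparisons and in old NR hearts, and above it for the NR interaction, on a single gene, and in old H2O hearts. The old H2O count was not stable, since leaving out a heart left between 1 and 4 calls and DESeq2 called 2. In all, 12 of the 35 genes were called in at least 1 heart comparison, and 23 in none. The comparisons share groups and are therefore not independent of each other.

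**Figure D1:**
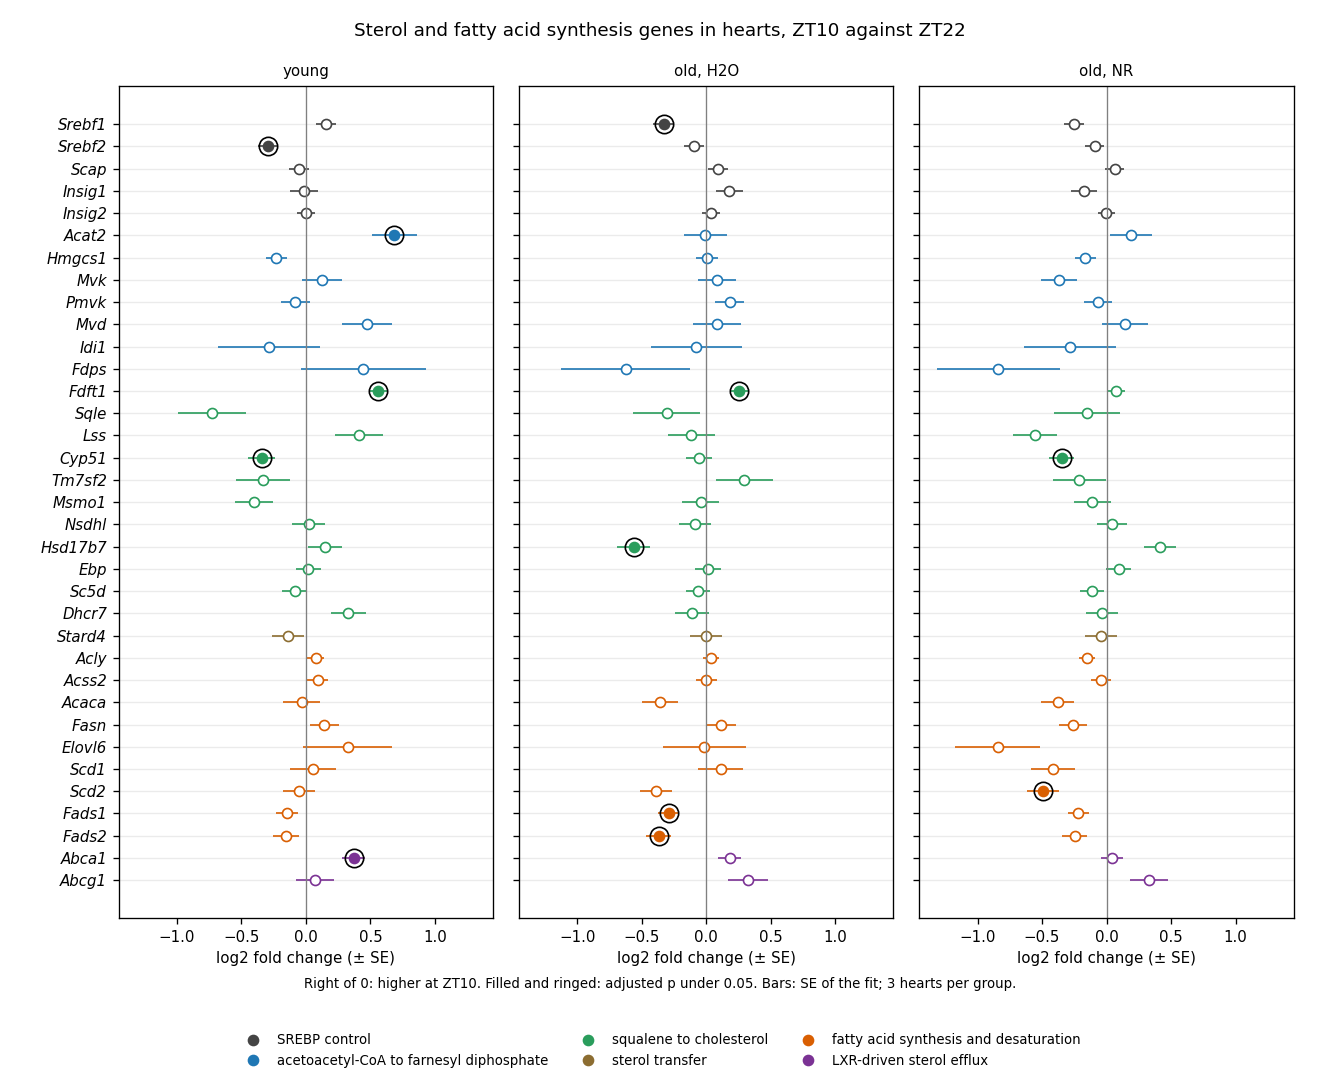
Log2 fold change of ZT10 over ZT22 (± SE; positive values are higher at ZT10) for each of the 35 genes in young, old H2O and old NR hearts, 3 hearts per group and time, colored by role, with filled, ringed circles for an adjusted p under 0.05. *Fdft1* (0.56) and *Acat2* (0.69) lie to the right in young hearts, *Hsd17b7* (-0.56) to the left in old H2O hearts and *Scd2* (-0.49) to the left in old NR hearts.

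Of the 5 SREBP control genes, *Srebf1* (chr11:60199089-60222581, minus strand, with gene positions from GENCODE M21 on GRCm38) was lower in old H2O hearts by day. At ZT10 it was 77.5, 74.6 and 79.8 CPM in young hearts, while old H2O hearts had 56.0, 59.6 and 63.1, against 62.5, 74.7 and 63.9 in old NR hearts. At ZT22 it was 70.9, 75.3 and 61.8 in young, 72.1, 79.4 and 72.7 in old H2O and 77.5, 80.0 and 82.3 in old NR hearts. The old H2O hearts at ZT10 lay below every young heart at that time (log2 fold change -0.37 ± 0.08, adjusted p = 0.00714) and below every old H2O heart at ZT22 (log2 fold change -0.33 ± 0.08, adjusted p = 0.0201). In young hearts the times overlapped (0.16 ± 0.08, adjusted p = 0.217), and the day-night difference itself changed with age (log2 fold change -0.48 ± 0.11, adjusted p = 0.0114). In old NR hearts the difference between times was -0.25 ± 0.08, adjusted p = 0.0562. Against old H2O hearts the NR effect was 0.17 ± 0.08, adjusted p = 0.473 at ZT10 and 0.10 ± 0.08, adjusted p = 0.713 at ZT22. The age call at ZT10 and the interaction were kept when each heart was left out in turn. The time call in old H2O hearts was lost without old H2O ZT10 replicate 1 (-0.30) or 2 (-0.33), or ZT22 replicate 2 (-0.28). Beside the age calls, macrophage markers summed to between 405 and 439 CPM in old H2O and between 343 and 375 in young hearts at ZT10, and to between 429 and 494 against 340 and 363 at ZT22. Atrial markers at ZT10 summed to between 338 and 505 CPM in old H2O and between 154 and 420 in young hearts. The part of these markers in the age calls was not tested. *Rai1* overlaps 1.93% of the exon bases of *Srebf1* on the opposite strand and had a log2 fold change of -0.35 (adjusted p = 0.0428) between the times in old H2O hearts.

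*Srebf2* (chr15:82147181-82205379, plus strand) was lower at ZT10 in young hearts, at 70.8, 70.1 and 65.6 CPM against 92.4, 86.1 and 75.6 at ZT22, without overlap (log2 fold change -0.30 ± 0.08, adjusted p = 0.0125). Old H2O hearts had 68.6, 74.0 and 75.3 CPM at ZT10 and 83.6, 79.2 and 71.3 at ZT22, and old NR hearts had 71.4, 77.1 and 67.6 and 79.8, 74.2 and 77.2. The difference between the times was called in neither old group (adjusted p = 0.573 and 0.6), but the interaction with age was not called either (0.20 ± 0.11, adjusted p = 0.293). The young call was lost without young ZT10 replicate 3 (-0.26, adjusted p = 0.062) or ZT22 replicate 1 (-0.23, adjusted p = 0.063). *Insig1*, itself a target of SREBP, was 30.1 ± 2.03 CPM (SD, n = 3) in young hearts at ZT10 and 30.5 ± 1.93 at ZT22, 36.8 ± 2.7 and 32.2 ± 3.58 in old H2O hearts, and 33.2 ± 4.75 and 37.7 ± 2.42 in old NR hearts. Its lowest adjusted p over the heart comparisons was 0.111, for age over both times (log2 fold change 0.19). *Scap* and *Insig2* were not called in any heart comparison.

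**Figure D2:**
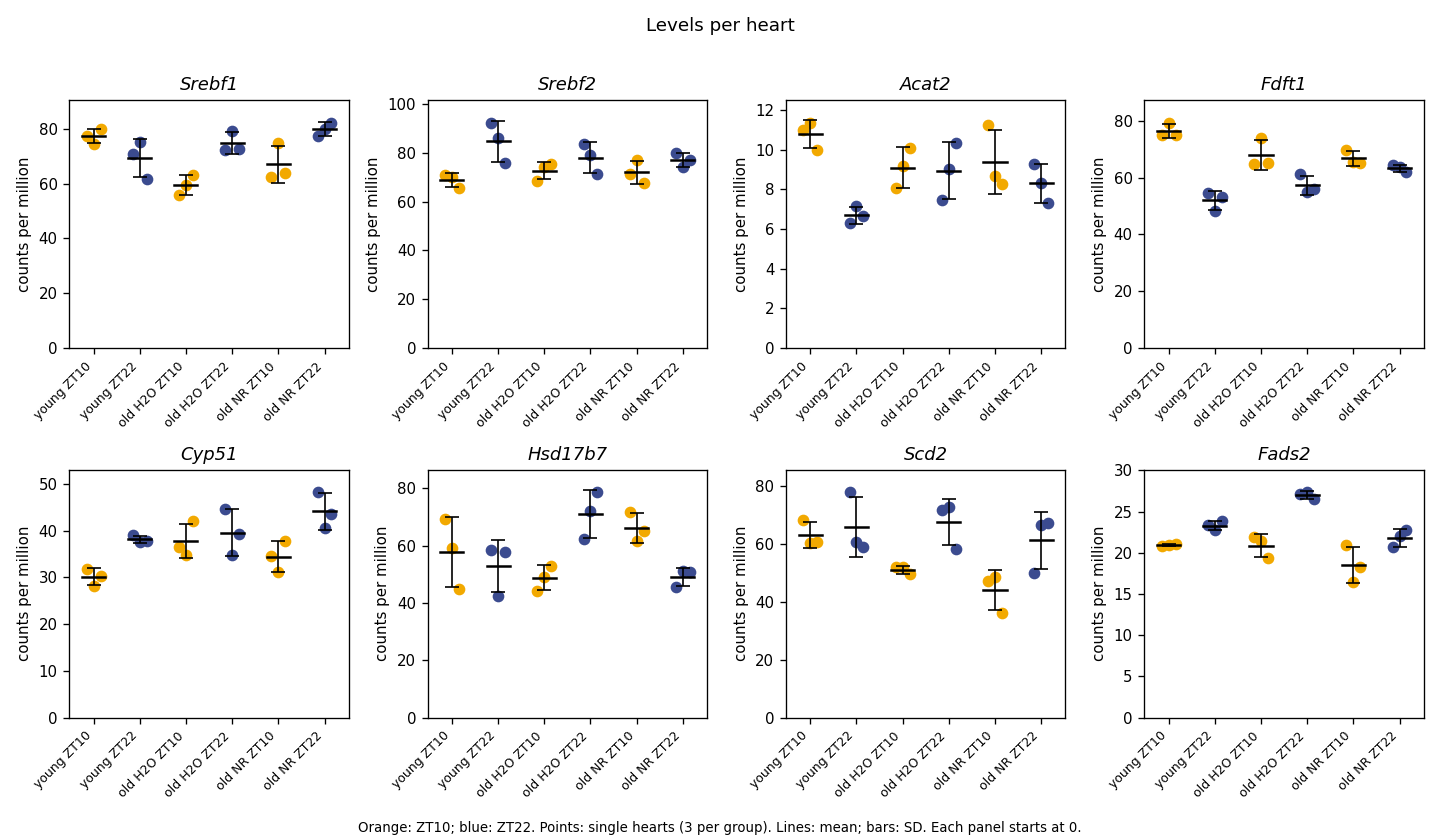
CPM of *Srebf1*, *Srebf2*, *Acat2*, *Fdft1*, *Cyp51*, *Hsd17b7*, *Scd2* and *Fads2* in each of 18 hearts (points) with the mean (lines) and SD (bars) of 3 hearts per group, ZT10 in orange and ZT22 in blue, each axis starting at 0. The 3 old H2O hearts at ZT10 are lowest for *Srebf1* within their age and time contrasts, and *Hsd17b7* is higher by night in old H2O hearts and higher by day in old NR hearts.

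Among the 7 enzymes of the early, mevalonate part of the pathway, *Acat2* (chr17:12942890-12960747, minus strand), the cytosolic thiolase that joins acetyl-CoA units, differed by time in young hearts. It was 11, 11.4 and 10 CPM at ZT10 and 6.28, 7.14 and 6.66 at ZT22, a 1.61-fold difference without overlap (log2 fold change 0.69 ± 0.17, adjusted p = 0.0101). The call was kept without each heart in turn (0.65 to 0.74). In old H2O hearts it was 8.06, 9.17 and 10.1 CPM at ZT10 and 7.45, 9.02 and 10.4 at ZT22 (-0.01 ± 0.17, adjusted p = 0.987). In old NR hearts it was 11.3, 8.66 and 8.28 and 9.27, 8.35 and 7.30 (0.19 ± 0.16, adjusted p = 0.626). The difference was called in neither old group, but its change with age did not pass the threshold (-0.69 ± 0.24, adjusted p = 0.087). In sequence, 34.5% of the 72-base windows of *Acat2* also occur in *Acat3*, so its level is uncertain.

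*Hmgcs1* (chr13:119690379-119708260, plus strand), whose promoter is shown above, makes HMG-CoA. It was 71.8, 71.2 and 68.9 CPM in young hearts at ZT10 and 90.8, 79.0 and 79.5 at ZT22, 63.8, 70.5 and 72.8 and 80.1, 67.8 and 61.4 in old H2O hearts, and 71.6, 73.4 and 73.0 and 78.2, 86.5 and 78.9 in old NR hearts. At ZT22 it was lower in old H2O than in young hearts (log2 fold change -0.27 ± 0.08, adjusted p = 0.0299) although the groups overlapped, with old replicate 1 above 2 of the young hearts. That call was lost without old H2O ZT22 replicate 2 or 3 or young ZT22 replicate 1 (-0.35 to -0.17 over all hearts left out). The call was also lost with DESeq2 and with a fit on only the groups compared. Between times it was -0.23 ± 0.08, adjusted p = 0.0647 in young and -0.16 ± 0.08, adjusted p = 0.277 in old NR hearts, and NR against H2O at ZT22 gave 0.24 ± 0.08, adjusted p = 0.214. The remaining 5 enzymes of this part (*Mvk*, *Pmvk*, *Mvd*, *Idi1* and *Fdps*) were not called in any heart comparison, and the last 2 were at no more than 3.16 and 2.36 CPM.

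Among the 11 enzymes from squalene to cholesterol, *Fdft1* (chr14:63145150-63179578, minus strand), which joins 2 farnesyl diphosphates into squalene, had the lowest adjusted p of the 35 genes in hearts. In young hearts it was 74.9, 79.4 and 75.1 CPM at ZT10 and 54.7, 48.3 and 53.3 at ZT22, 1.47-fold higher by day (log2 fold change 0.56 ± 0.07, adjusted p = 9.11e-06). The call held without each heart in turn (0.50 to 0.59). In old H2O hearts it was 64.7, 74.0 and 65.0 at ZT10 and 61.2, 54.9 and 55.8 at ZT22, again without overlap but 1.19-fold (log2 fold change 0.26 ± 0.07, adjusted p = 0.037). This call was lost without any of 5 of the 6 hearts (0.19 to 0.29), the exception being ZT22 replicate 1. The old H2O call was also lost with DESeq2 and with a fit on only the groups compared. In old NR hearts it was 69.8, 65.4 and 65.1 and 64.4, 63.7 and 61.9 (0.08 ± 0.07, adjusted p = 0.63). The change of the difference with age was -0.30 ± 0.10, adjusted p = 0.0665. *Ctsb* overlaps 18.3% of the exon bases of *Fdft1* on the opposite strand, and its own log2 fold change between times was 0.01 (adjusted p = 0.973) in young and 0.11 (adjusted p = 0.657) in old H2O hearts.

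*Cyp51* (chr5:4081145-4104746, minus strand), the lanosterol demethylase, was lower by day in young and old NR hearts. It was 31.9, 28.2 and 30.2 CPM at ZT10 against 39.0, 37.7 and 37.7 at ZT22 in young hearts (log2 fold change -0.34 ± 0.10, adjusted p = 0.0319). Among old NR hearts it was 34.6, 31 and 37.7 against 48.2, 40.5 and 43.5 (log2 fold change -0.35 ± 0.10, adjusted p = 0.0372). In old H2O hearts it was 36.6, 34.8 and 42.0 at ZT10 and 44.7, 34.8 and 39.3 at ZT22 (-0.06 ± 0.10, adjusted p = 0.809). The times did not overlap in young or old NR hearts and did in old H2O hearts, but neither interaction was called (adjusted p = 0.261 with age and 0.486 with NR). The young call was kept only without young ZT10 replicate 1 (-0.38 to -0.29 over all hearts left out), and it was lost with DESeq2 (adjusted p = 0.0618). The old NR call was lost without NR ZT10 replicate 1 or 2 or ZT22 replicate 1 or 3, and with ZT10 replicates 1 and 3 added into 1 library (-0.37, adjusted p = 0.0578). DESeq2 and a fit on only the groups compared also lost the old NR call.

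*Hsd17b7* (chr1:169949535-169969241, minus strand), a 3-ketosteroid reductase of cholesterol synthesis that also acts on estrogens, was called in 4 heart comparisons, more than any other of the 35 genes. In old H2O hearts it was 44.2, 49.2 and 52.9 CPM at ZT10 and 62.3, 72.3 and 78.7 at ZT22, 1.47-fold higher by night (log2 fold change -0.56 ± 0.13, adjusted p = 0.0129). In old NR hearts the order was the opposite, with 71.8, 61.7 and 65.2 CPM at ZT10 and 45.6, 51.3 and 50.7 at ZT22 (log2 fold change 0.42 ± 0.13, adjusted p = 0.0552). In young hearts it was 69.4, 59.0 and 44.9 and 58.5, 42.3 and 57.7, and the times overlapped (0.15 ± 0.13, adjusted p = 0.536). The times did not overlap in either old group. The change of the day-night difference with NR was log2 fold change 0.98 ± 0.18, adjusted p = 0.017, the only one of the 35 genes called there. With age it was log2 fold change -0.71 ± 0.18, adjusted p = 0.0222. At ZT22 old H2O hearts all lay above the young hearts (log2 fold change 0.46 ± 0.13, adjusted p = 0.0199), and the old NR hearts all below the old H2O hearts without passing the threshold (-0.54 ± 0.13, adjusted p = 0.0638). At ZT10 old NR hearts were all above the old H2O hearts, again without passing it (0.44 ± 0.13, adjusted p = 0.182).

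The NR interaction of *Hsd17b7* was lost without old H2O ZT10 replicate 1 (0.93, adjusted p = 0.052) or old NR ZT10 replicate 1 (0.92, adjusted p = 0.055), and kept with the alike NR ZT10 replicates 1 and 3 added together (0.96, adjusted p = 0.037). The time call in old H2O hearts was lost without ZT10 replicate 1 (-0.51) or ZT22 replicate 3 (-0.48). The age call at ZT22 was lost without old ZT22 replicate 2 or 3 or young ZT22 replicate 2 (0.31 to 0.54 over all hearts left out). The age interaction was lost without old H2O ZT10 replicate 1, old H2O ZT22 replicate 3, young ZT10 replicate 1 or 2, or young ZT22 replicate 2 (-0.85 to -0.56). Macrophage markers summed to between 405 and 494 CPM in old H2O hearts and between 331 and 378 in all other hearts. Atrial markers summed to between 338 and 505 CPM in old H2O hearts at ZT10 and between 110 and 128 in old NR hearts at ZT10. The part of these differences in the result was not tested. In bulk tissue, fewer cells of a type and less RNA per cell cannot be told apart.

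*Tm7sf2* (chr19:6062821-6068373, minus strand), a sterol C14-reductase, was 11.4, 11.1 and 7.58 CPM in young hearts at ZT22, 6.12, 4.83 and 7.58 in old H2O hearts and 7.13, 7.82 and 9.83 in old NR hearts, from 23 to 70 reads per heart. The old H2O hearts were lower than the young ones (log2 fold change -0.67 ± 0.21, adjusted p = 0.0362), with the highest old and the lowest young heart both at 7.58 CPM to 3 digits. The call was lost without old ZT22 replicate 1 or 2 or young ZT22 replicate 1 or 2 (-0.90 to -0.51), and *Vps51* on the same strand overlaps 12.1% of its exon bases. DESeq2 and a fit on only the groups compared also lost the *Tm7sf2* call. *Sqle*, the squalene epoxidase and an early rate-limiting step, was low, at 5.31, 4.40 and 3.11 CPM at ZT10 and 7.85, 5.31 and 8.51 at ZT22 in young hearts (-0.73 ± 0.26, adjusted p = 0.0683). It was 3.51, 4.24 and 6.58 and 5.59, 5.15 and 6.70 in old H2O hearts (-0.31 ± 0.26, adjusted p = 0.577). Its old NR values were 4.29, 4.33 and 5.58 and 4.51, 6.36 and 4.63 (-0.15 ± 0.25, adjusted p = 0.846). The means by night were higher than by day in each, but the hearts overlapped and no call was made. The isomerase *Ebp* had the lowest p of the 35 genes for age over both times (-0.20 ± 0.07, adjusted p = 0.0628). It was at 35.8, 31.9 and 27.1 CPM at ZT10 and 27.8, 33.2 and 32.4 at ZT22 in the young group. Its old H2O values were 27.5, 28.0 and 26.9 and 28.2, 25.8 and 27.8. *Hmgcs1* followed for that comparison (-0.15 ± 0.06, adjusted p = 0.0995). *Lss*, *Msmo1*, *Nsdhl*, *Sc5d* and *Dhcr7* were not called in any heart comparison, and neither was *Stard4*.

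Among the 9 genes of fatty acid synthesis and desaturation, the heart calls fell on desaturases. *Fads2* (chr19:10062765-10101746, minus strand), the delta-6 desaturase of polyunsaturated fatty acids, was 21.9, 21.4 and 19.3 CPM at ZT10 and 27.2, 27.4 and 26.5 at ZT22 in old H2O hearts, 1.29-fold higher by night (log2 fold change -0.37 ± 0.10, adjusted p = 0.03). It was 20.9, 20.9 and 21.1 and 23.3, 22.7 and 23.9 in young hearts (-0.15 ± 0.10, adjusted p = 0.397). It was 20.9, 16.5 and 18.3 and 20.7, 22 and 22.8 in old NR hearts (-0.25 ± 0.10, adjusted p = 0.159). Its neighbor *Fads1* (chr19:10182888-10196877, plus strand), the delta-5 desaturase, was 51.8, 60.8 and 52.0 CPM at ZT10 and 67.3, 62.9 and 71.5 at ZT22 in old H2O hearts (log2 fold change -0.29 ± 0.08, adjusted p = 0.0476). It was 49.4, 57.4 and 48.9 and 55.2, 55.3 and 62.5 in young hearts, and 55.9, 54.4 and 56.3 and 58.5, 67.7 and 66.3 in old NR hearts. Both were lower by day than by night in old H2O hearts without overlap, and neither interaction with age was called (adjusted p = 0.428 and 0.538). The *Fads1* call was lost without any of 5 of the 6 hearts (kept without ZT10 replicate 2, -0.38 to -0.24 over all). The *Fads2* call was lost without ZT10 replicate 2 or 3 or ZT22 replicate 2 or 3 (-0.41 to -0.32). Both calls were also lost with DESeq2 and with a fit on only the groups compared. The *Fads1* call was lost as well with no filter on low counts and with library size as a covariate.

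*Scd2* (chr19:44293674-44306864, plus strand), a stearoyl-CoA desaturase that makes monounsaturated fatty acids, was 47.3, 48.8 and 36.2 CPM at ZT10 and 49.9, 66.8 and 67.3 at ZT22 in old NR hearts, 1.41-fold higher by night (log2 fold change -0.49 ± 0.12, adjusted p = 0.0198). Old H2O hearts had 52.1, 52.0 and 49.6 and 71.9, 72.9 and 58.4 (-0.39 ± 0.12, adjusted p = 0.0824). Young hearts had 68.5, 60.5 and 60.9 and 78.0, 60.9 and 59.2 (-0.05 ± 0.12, adjusted p = 0.846). The old groups were both lower by day without overlap, though only the NR group passed the threshold, and the NR interaction was -0.10 ± 0.18, adjusted p = 0.876. The call was lost without NR ZT10 replicate 3 or ZT22 replicate 2 or 3 (-0.60 to -0.36), and kept with NR ZT10 replicates 1 and 3 added together (-0.47, adjusted p = 0.0438).

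*Fasn*, the fatty acid synthase, was 100.3, 75.6 and 83.1 CPM at ZT10 and 77.1, 85.8 and 71.2 at ZT22 in young hearts, 81.2, 74.2 and 83.1 and 55.1, 74.2 and 85.3 in old H2O hearts, and 65.5, 70.5 and 69.5 and 81.7, 84.1 and 80.3 in old NR hearts. *Scd1*, the main stearoyl-CoA desaturase of fat and liver, was 86.9, 50.6 and 45.6 and 47.8, 60.7 and 67.5 in young, 77.3, 49.4 and 69.3 and 53.0, 64.4 and 60.9 in old H2O, and 49.8, 50.1 and 56.3 and 73.4, 69.9 and 65.4 in old NR hearts. Neither was called in a heart comparison, and their lowest adjusted p-values were those between times in old NR hearts (0.202 for *Fasn* and 0.192 for *Scd1*), where all hearts were lower by day. The highest heart for both was young ZT10 replicate 1, which also had the highest sum of white adipocyte markers, 92.7 CPM against 18 to 84 in the other hearts, and its part in these levels was not tested. Without that heart the same 5 genes were called between the times in young hearts.

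With NR against H2O, *Hsd17b7* and *Acly* had the lowest p at ZT10, *Hsd17b7* and *Fads2* at ZT22, and *Fads2* and *Hmgcs1* over both times, none of them called. *Acly* was 104, 102 and 108 CPM in old H2O and 97.9, 93.3 and 90.4 in old NR hearts at ZT10, where the groups did not overlap (-0.16 ± 0.06, adjusted p = 0.376). *Fads2* was lower in all old NR than in all old H2O hearts at ZT22 (-0.30 ± 0.09, adjusted p = 0.18), and over both times it gave -0.24 ± 0.07, adjusted p = 0.141. *Hmgcs1* over both times gave 0.16 ± 0.06, adjusted p = 0.27. *Acss2*, *Acaca* and *Elovl6* were not called in any heart comparison.

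Of the 2 efflux genes, *Abca1* (chr4:53030787-53159895, minus strand), the transporter that loads cholesterol onto apolipoprotein A-I, was higher by day in young hearts. It was 113, 133 and 120.04 CPM at ZT10 and 83.9, 100.1 and 98.4 at ZT22 without overlap (log2 fold change 0.37 ± 0.09, adjusted p = 0.00665). The call was lost only without young ZT10 replicate 2 (0.30, adjusted p = 0.054). Old H2O hearts had 102, 108 and 123 and 105, 97.7 and 92.9 (0.18 ± 0.09, adjusted p = 0.289). Old NR hearts had 100.01, 102 and 103 and 83.9, 106 and 104 (0.04 ± 0.09, adjusted p = 0.881), where the times overlapped. The change with age was -0.19 ± 0.13, adjusted p = 0.417. *Abcg1* was not called in any heart comparison. In young hearts the gene for SREBP-2 and *Cyp51* were thus lower by day and *Abca1*, *Acat2* and *Fdft1* higher by day, so the called genes of cholesterol synthesis did not move in a single direction.

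A further 47 genes in 5 lists around the pathway were counted beside the 35. Of the 45 tested in hearts, 13 (28.9%) were called between times in young hearts, 7 higher by day and 6 lower, against 14.4% of all genes, and DESeq2 called 9. In old H2O hearts 4 (8.89%) were called, 2 each way, against 4.2% of all genes, and in old NR hearts 3 (6.67%), 2 higher and 1 lower, against 5.37%. In young hearts the called genes with the largest changes were *Mid1ip1*, which activates acetyl-CoA carboxylase (0.90 ± 0.13, adjusted p = 7.97e-05), and *Syvn1*, a ubiquitin ligase of the endoplasmic reticulum (-0.77 ± 0.07, adjusted p = 1.25e-07). They also included *Npc1*, which exports cholesterol from lysosomes (0.65 ± 0.09, adjusted p = 2.94e-05), and *Mylip*, an LXR target that degrades lipoprotein receptors (0.64 ± 0.11, adjusted p = 0.000542). Among old H2O hearts they were the citrate carrier *Slc25a1* (-0.61 ± 0.14, adjusted p = 0.0134), *Mid1ip1* (0.47 ± 0.13, adjusted p = 0.0476), the acyltransferase *Lpcat3* (-0.31 ± 0.08, adjusted p = 0.0289) and LXR-beta, *Nr1h2* (0.22 ± 0.06, adjusted p = 0.0448). In old NR hearts they were *Npc1* (0.41 ± 0.09, adjusted p = 0.0055), the glucose-responsive factor *Mlxipl* (-0.39 ± 0.10, adjusted p = 0.0253) and *Elovl1* (0.32 ± 0.09, adjusted p = 0.0341). With NR ZT10 replicates 1 and 3 added into 1 library, *Npc1* kept its call (0.40, adjusted p = 0.02), while *Mlxipl* (-0.39, adjusted p = 0.061) and *Elovl1* (0.32, adjusted p = 0.0611) lost theirs.

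With age, 3 of the 45 (6.67%) were called at ZT10, all lower in old H2O hearts, against 5.87% of all genes. At ZT22 7 (15.6%) were called, 2 higher and 5 lower, against 14.1%, and DESeq2 called 5. Over both times 7 (15.6%) were called, 3 higher and 4 lower, against 11.8%, but DESeq2 called only 3 (*Mlxipl*, *Scarb1* and *Syvn1*). The lipoprotein receptor gene *Scarb1* was lower at ZT10 (-0.49 ± 0.08, adjusted p = 0.000685), as were *Mylip* (-0.41 ± 0.11, adjusted p = 0.0339) and *Lpcat3* (-0.35 ± 0.08, adjusted p = 0.0121). At ZT22 *Syvn1* (-0.71 ± 0.07, adjusted p = 1.10e-06), *Mlxipl* (-0.54 ± 0.10, adjusted p = 0.00126) and *Elovl5* (-0.27 ± 0.08, adjusted p = 0.0187) were lower and *Slc25a1* higher (0.89 ± 0.14, adjusted p = 0.000322) in old H2O hearts. Over both times *Mlxipl* (-0.41 ± 0.07, adjusted p = 0.000722), *Scarb1* (-0.32 ± 0.06, adjusted p = 0.000787) and *Syvn1* (-0.30 ± 0.05, adjusted p = 0.000536) were lower and *Slc25a1* higher (0.32 ± 0.10, adjusted p = 0.0446). The change of the day-night difference with age was called in 5 of the 45 (11.1%, against 6.89% of all genes), 1 positive and 4 negative. With NR edgeR and DESeq2 each called 0 of the 45 at either time, over both times or in the interaction, where 4, 4, 4 and 6 had an unadjusted p under 0.05.

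In the labelled HL-1 cells, a call needed an adjusted p under 0.01 and a change over 1.5-fold, with a second count at an adjusted p under 0.05 and no minimum change. With FK866 against untreated cells 1 of 34 genes was called (4.59% of all 14760 tested) and 15 at the second rule (24.8%), 5 higher and 10 lower. With FK866 and NR against FK866 alone 2 of 34 were called (4.81%) and 14 at the second rule (28.9%), 7 higher and 7 lower. With FK866 and NR against untreated cells 1 was called (0.901%) and 11 at the second rule (23.9%), 2 higher and 9 lower. With Ex527 added, 0 of 34 were called against FK866 with NR (0.596%), against FK866 (1.27%) or against untreated cells (1.42%), where 11, 18 and 15 had an unadjusted p under 0.05. DESeq2 also called 0 in these, and without untreated replicate 1 *Abca1* was called with Ex527 against untreated cells. At the second rule these were 3 (7.17%, 0 higher and 3 lower), 11 (12.2%, 5 higher and 6 lower) and 11 (16.3%, 3 higher and 8 lower). These 6 comparisons share their groups and are not independent of each other. The second count for FK866 with NR against untreated cells fell from 11 to 1 (*Abca1*) without FK866 with NR replicate 1, and to 3 without untreated replicate 3. It fell to 5 without FK866 with NR replicate 2 or untreated replicate 2, and to 7 without FK866 with NR replicate 3. The second count with Ex527 against FK866 fell from 11 to 6 without Ex527 replicate 1 or 2 and to 7 without FK866 replicate 1. Against untreated cells it fell from 11 to 6 without Ex527 replicate 2 and to 7 without untreated replicate 3.

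**Figure D3:**
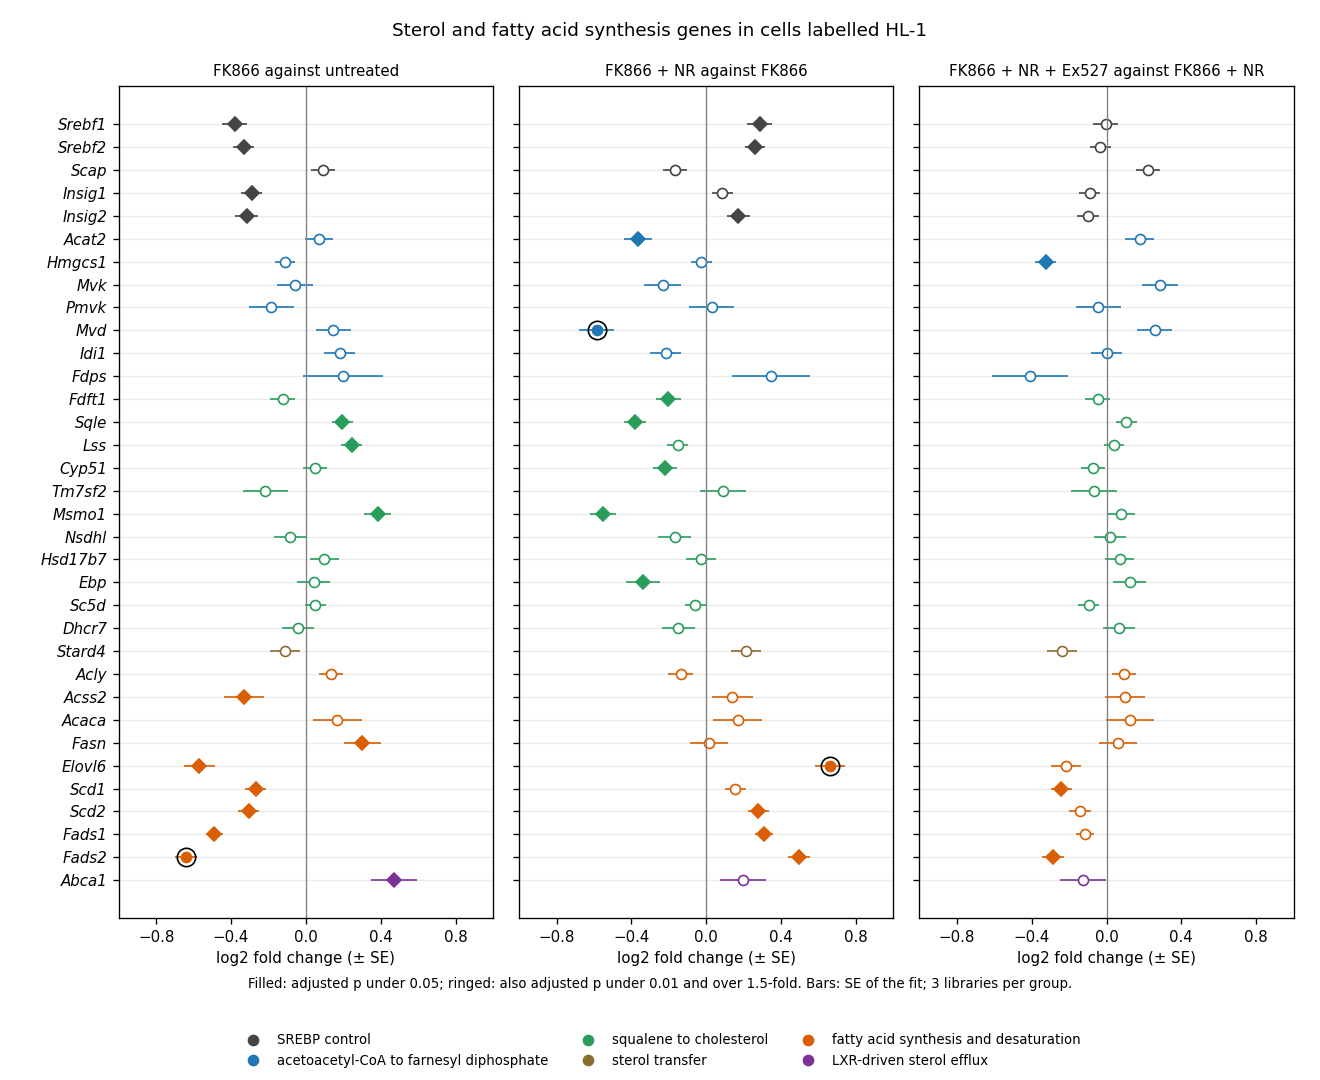
Log2 fold change (± SE) of the tested genes in labelled HL-1 cells for the treatment comparisons, 3 libraries per treatment, colored by role, with filled diamonds for an adjusted p under 0.05 and ringed circles where the adjusted p is also under 0.01 and the change over 1.5-fold. *Fads2* (-0.64) is ringed with FK866, and *Elovl6* (0.66) and *Mvd* (-0.59) when NR is added to FK866.

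Among SREBP control genes, 4 of 5 were lower with FK866 at the second rule, where 12.6% of all genes were lower. *Srebf1* was 186, 204 and 188 CPM in untreated cells, 153, 148 and 144 with FK866, 175, 179.8 and 187 with FK866 and NR and 174, 198 and 167 with Ex527 added. *Srebf2* was 308, 323 and 299 CPM, 249.7, 239.7 and 248.7, 285, 291 and 307 and 277, 300.1 and 286 in the same order. Both were lower in all FK866 libraries than in all untreated ones (*Srebf1* -0.38 ± 0.07, adjusted p = 0.000836, and *Srebf2* -0.33 ± 0.06, adjusted p = 0.00053). They were higher again with NR (*Srebf1* 0.29 ± 0.07, adjusted p = 0.00565, and *Srebf2* 0.26 ± 0.06, adjusted p = 0.00289). With Ex527 added neither was called against FK866 with NR (*Srebf1* 0.00 ± 0.07, adjusted p = 0.981, and *Srebf2* -0.03 ± 0.05, adjusted p = 0.776). *Rai1*, which overlaps 1.93% of the exon bases of *Srebf1*, also rose when NR was added to FK866 (0.64, adjusted p = 0.00172). The strand setting of these counts is not given, and the part of *Rai1* in the *Srebf1* values was not tested. *Insig1* was 176, 184 and 173 CPM in untreated cells, 147, 141 and 148 with FK866, 149, 158 and 155 with NR and 138, 145 and 152 with Ex527. It was lower with FK866 (-0.29 ± 0.06, adjusted p = 0.00162) and was not called with NR against FK866 (0.09 ± 0.06, adjusted p = 0.266). *Insig2* was lower with FK866 (-0.32 ± 0.06, adjusted p = 0.00146) and higher with NR (0.17 ± 0.06, adjusted p = 0.0456), and *Scap* passed neither rule in any comparison.

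**Figure D4:**
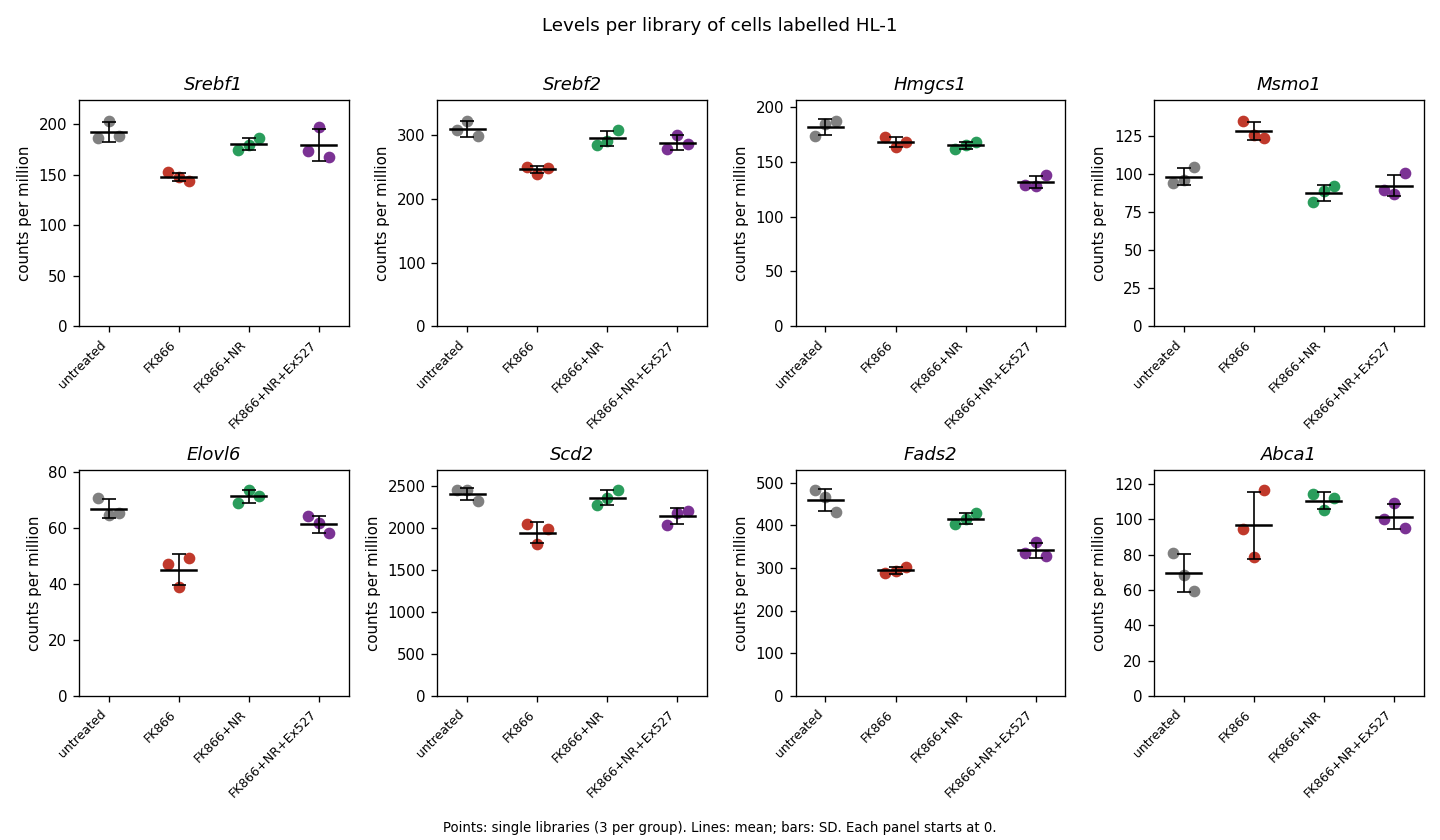
CPM of *Srebf1*, *Srebf2*, *Hmgcs1*, *Msmo1*, *Elovl6*, *Scd2*, *Fads2* and *Abca1* in each of 12 libraries of labelled HL-1 cells (points) with the mean (lines) and SD (bars) of 3 libraries per treatment, each axis starting at 0. *Fads2* is lowest with FK866, *Msmo1* highest with FK866, and *Hmgcs1* lowest with Ex527 added.

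Several cholesterol enzymes were lower when NR was added to FK866, the opposite direction to the desaturases *Fads1*, *Fads2* and *Scd2*. *Mvd*, the mevalonate diphosphate decarboxylase, was 40.2, 39.0 and 43.1 CPM in untreated cells, 42.6, 52.1 and 40.8 with FK866, 28.1, 33.4 and 28.8 with NR and 36.8, 34.9 and 36.1 with Ex527. It fell with NR (log2 fold change -0.59 ± 0.09, adjusted p = 0.00036), without overlap. *Msmo1*, the sterol C4 methyl oxidase, was 94.1, 96.2 and 104, 135, 126 and 124, 81.8, 88.6 and 92 and 89.8, 87.0 and 100.5 in the same order. It was higher with FK866 (0.38 ± 0.07, adjusted p = 0.0012) and lower again with NR (-0.55 ± 0.07, adjusted p = 6.25e-05). *Sqle* was 77.8, 82.4 and 82.1, 94.4, 92.1 and 90.9, 69.6, 68.4 and 75.2 and 74.3, 76.3 and 79.0, with the same order of groups (0.20 ± 0.06, adjusted p = 0.022 with FK866, and -0.38 ± 0.06, adjusted p = 0.000254 with NR). At the second rule NR lowered 2 of 7 early enzymes (*Acat2* -0.36 and *Mvd*) and 5 of 11 later ones (*Msmo1*, *Sqle*, *Ebp* -0.34, *Cyp51* -0.22 and *Fdft1* -0.20), and raised none of the 18, while 15% of all genes were lower and 13.9% higher. *Ctsb*, which overlaps *Fdft1*, moved the same way with NR (-0.25, adjusted p = 0.00957), and the strand setting of these counts is not given, so the *Fdft1* value is uncertain. The strict *Mvd* call was lost, by its change falling under 1.5-fold, without FK866 replicate 2 or FK866 with NR replicate 1 or 3 (-0.67 to -0.46). It was also lost with DESeq2, with DESeq2's size factors in edgeR and with the replicate number as a block.

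*Hmgcs1* stood out when Ex527 was added. It was 173, 184 and 187 CPM in untreated cells, 173, 163 and 168 with FK866, 162, 165 and 168 with FK866 and NR, and 129, 128 and 138 with Ex527. The Ex527 libraries lay below all others, by -0.33 ± 0.06, adjusted p = 0.00312 against FK866 with NR, -0.35 ± 0.06, adjusted p = 0.000981 against FK866 and -0.46 ± 0.06, adjusted p = 0.000182 against untreated cells, though under 1.5-fold in each. With Ex527 against FK866 with NR, *Fads2* (-0.28 ± 0.06, adjusted p = 0.00977) and *Scd1* (-0.24 ± 0.06, adjusted p = 0.0192) were the other two at the second rule. Without FK866 with NR replicate 1, 2 of these 3 remained, *Hmgcs1* and *Fads2*. Against FK866 alone *Msmo1* was also lower (-0.47 ± 0.07, adjusted p = 0.000679), and against untreated cells *Fads2* was (-0.43 ± 0.06, adjusted p = 0.000476).

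Of the 9 genes of fatty acid synthesis and desaturation, 6 were lower and 1 higher with FK866 at the second rule, against 12.6% and 12.2% of all genes. When NR was added 4 were higher and 0 lower, against 13.9% and 15% of all genes. *Fads2* was 482, 465 and 431 CPM in untreated cells, 287, 293 and 303 with FK866, 403, 416 and 429 with FK866 and NR, and 336, 361 and 327 with Ex527. It fell 1.56-fold with FK866 (log2 fold change -0.64 ± 0.06, adjusted p = 2.82e-06), the only strict call there, kept without each library in turn (-0.69 to -0.61), when either *Elovl6* or *Abca1* was called as well. It rose with NR by less than 1.5-fold (0.50 ± 0.06, adjusted p = 3.07e-05). *Elovl6*, which lengthens palmitate, was 70.6, 64.4 and 65.2, 46.9, 38.7 and 49.2, 68.9, 73.4 and 71.2 and 64.1, 61.6 and 58.0 in the same order. It was lower with FK866 at the second rule (-0.57 ± 0.08, adjusted p = 0.000145). It rose 1.58-fold with NR (log2 fold change 0.66 ± 0.08, adjusted p = 4.14e-05), a strict call lost only without FK866 replicate 2 (0.58). *Fads1* was lower with FK866 (-0.49 ± 0.05, adjusted p = 3.82e-06) and higher with NR (0.31 ± 0.05, adjusted p = 0.000226). So was *Scd2*, the gene with the most counts of all 35 (-0.31 ± 0.06, adjusted p = 0.00131, and 0.28 ± 0.06, adjusted p = 0.00241 with NR).

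*Scd1* was 545, 548 and 520.3 CPM in untreated cells, 436, 422 and 482 with FK866, 487, 499 and 507 with NR and 413, 417 and 432 with Ex527. It was lower with FK866 (-0.27 ± 0.06, adjusted p = 0.00293) and short of the second rule with NR (0.16 ± 0.06, adjusted p = 0.0504). *Fasn* was 297, 261 and 224, 314, 284 and 367, 339, 314 and 322 and 328, 366 and 323 in the same order. All 3 treated groups had higher means than untreated cells (adjusted p = 0.0384, 0.0343 and 0.0215), with untreated and FK866 libraries overlapping. *Abca1* was 81.1, 68.4 and 59.6 CPM in untreated cells, 94.6, 78.6 and 117 with FK866, 114, 105 and 112 with FK866 and NR, and 100.3, 109 and 95.2 with Ex527. It was 1.59-fold higher with FK866 and NR than in untreated cells (log2 fold change 0.67 ± 0.12, adjusted p = 0.00916), a strict call kept only without untreated replicate 1 (0.56 to 0.79 over all libraries left out). It was not called with NR against FK866 alone (0.19 ± 0.12, adjusted p = 0.253).

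Of 43 further pathway genes tested in these cells, 2 (4.65%) were called with FK866 and 2 when NR was added, near the 4.59% and 4.81% of all genes. In the other 4 comparisons edgeR and DESeq2 called 0, while between 8 and 20 had an unadjusted p under 0.05. The lipoprotein receptor gene *Lrp8* rose with FK866 (0.66 ± 0.10, adjusted p = 0.000183) and fell with NR (-0.60 ± 0.10, adjusted p = 0.000411). *Tecr*, an enoyl reductase of fatty acid elongation, fell with FK866 (-0.59 ± 0.09, adjusted p = 0.000309). LXR-alpha, *Nr1h3*, fell with NR (-0.73 ± 0.17, adjusted p = 0.00492) from a level of 5.63 ± 0.921 CPM to 3.41 ± 0.614 (SD, n = 3). At the second rule 16 of 43 (37.2%, against 24.8% of all genes) passed with FK866, 12 (27.9%, against 28.9%) with NR added and 12 (27.9%, against 23.9%) for FK866 with NR against untreated cells. With Ex527, 6 passed against FK866 with NR (14%, against 7.17%), 3 against FK866 (6.98%, against 12.2%) and 11 against untreated cells (25.6%, against 16.3%). None of the lists around the pathway was tested as a set.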

How the data were processed

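The authors deposited raw counts of reads per gene, 1 table for hearts and 1 for HL-1 cells, and these counts were used. Per the labels and methods, heart libraries were stranded, and reads were trimmed (Trimmomatic 0.39), aligned to mm10 (STAR 2.7.10a), cleared of duplicates (Picard 3.0.0), multi-mapping, ribosomal and mitochondrial reads, and counted over exons (featureCounts 2.0.4), leaving out reads that overlap several genes. The strand setting, and how HL-1 reads were counted, are not given in the sources used here. A second heart table, deposited by the authors, holds scores (counts divided by a DESeq2 size factor and rounded) and served only for gene symbols. The 2 heart tables are named the other way round, and their totals (3922137 to 7562215 against 5228575 to 5767293) decided which holds raw counts. The deposited table of HL-1 FPKM was not used. Counts were scaled by TMM and tested with edgeR 4.0.16 (quasi-likelihood) in R 4.3.3, with 1 fit over 18 hearts (average count over 5) and 1 over 12 HL-1 libraries (filterByExpr), after the scripts were tested on simulated data. DESeq2 1.42.0, other filters, other scaling and leaving out libraries were tried as alternatives. The 35 genes, the lists around them and the promoter motifs were chosen with earlier results of these data known. Every called gene is named, with per-sample values for the up to 6 called genes of largest change per comparison, or for the 2 of lowest p where none was called, and *Srebf1*, *Srebf2*, *Insig1*, *Hmgcs1*, *Sqle*, *Fasn*, *Scd1* and *Abca1* are always given. For the lists, up to 4 called genes with the largest changes are named. Per the methods, replicates were individual mice or wells cultured separately, usually within 1 experiment, so p-values in cells measure the spread between wells.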

Additional observations from a re-analysis of the deposited data

Results flagged for a closer look

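The change of the day-night difference with age, old H2O minus young on the log2 scale, differed by its own test in *Srebf1* (-0.48) and *Hsd17b7* (-0.71) and, in the lists around the pathway, in 5 of 45 genes against 6.89% of all genes, the 4 of largest size being *Slc25a1* (-1.12), *Syvn1* (0.82), *Mylip* (-0.62) and *Npc1* (-0.53). The change of the day-night difference with NR, old NR minus old H2O, differed by its own test in *Hsd17b7* (0.98). These tests share the old H2O hearts.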

How the results depend on the processing

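No called change in a named gene reversed its sign under any alternative run. Changes that were not called, some of them near 0, are not covered by this. Leaving out each library in turn gave between 3 and 5 called genes for time in young, 1 and 4 in old H2O and 0 and 3 in old NR hearts; 1 for age at ZT10, 0 to 4 at ZT22 and 0 to 1 over both times; 0 for NR at ZT10 and over both times and 0 to 2 at ZT22; and 1 to 3 and 0 to 1 for the age and NR interactions. In cells it gave 2 for FK866, 0 to 3 for NR added to FK866, 0 to 1 for FK866 with NR and for Ex527 against untreated cells, and 0 for the other Ex527 comparisons. At an adjusted p under 0.05 with no minimum change, the cell counts became 15, 14, 11, 3, 11 and 11, which without each library ranged from 12 to 17, 11 to 18, 1 to 12, 2 to 3, 6 to 13 and 6 to 12. With DESeq2 *Cyp51* lost its call in young and old NR hearts, and *Fdft1*, *Fads1* and *Fads2* lost theirs in old H2O hearts. *Hmgcs1* and *Tm7sf2* lost theirs for age at ZT22, and *Mvd* its strict call with NR. The 45 genes around the pathway gave 3 calls in place of 7 for age over both times. The time counts became 2 in old H2O and 1 in old NR hearts, and age and NR at ZT22 gave 1 each. NR added to FK866 gave 1, as it did with DESeq2's size factors in edgeR. With no filter on low counts, *Fads1* lost its call in old H2O hearts and *Hsd17b7* was called for time in old NR hearts. With only the groups compared, time gave 3 in old H2O and 5 in old NR hearts, age gave 3 at ZT10 and 1 at ZT22, and NR at ZT10 gave 1. With log2 library size as a covariate, chosen after seeing the data, time gave 5 in old NR hearts, age gave 2 at ZT10 and 2 over both times, and NR at ZT22 gave 1. It also added *Hmgcs1* for time in young hearts (adjusted p = 0.0301) and *Fdft1* for the age interaction (adjusted p = 0.0452). *Fads1* lost its call for time in old H2O hearts. With old NR ZT10 replicates 1 and 3 added into 1 library, also chosen after seeing the data, time gave 1 in old NR hearts. With an average count over 5 as the filter, FK866 with NR against untreated cells gave 0. With the replicate number as a block, age at ZT10 gave 2, NR added to FK866 gave 1 and FK866 with NR against untreated cells gave 0. In no compared pair of groups was every correlation between same-numbered samples over 0.1. They ran from 0.073 to 0.282 between old H2O and old NR hearts at ZT22, and from -0.156 to 0.271 between the times in old NR hearts. At ZT22 replicate 1 had the fewest total counts in each group (3922137, 4364594 and 4538090), which did not hold in every group at ZT10. Whether the number marks anything shared was not settled. Same-number correlations ran from -0.261 to 0.317 over all 15 pairs of heart groups and from -0.588 to 0.230 over the 6 pairs of cell groups. Every correlation was over 0.1 in 1 heart pair (old H2O ZT10 with old NR ZT22), which no comparison sets directly against each other. In old NR hearts the block gave 3. The causes of these changes were not tested.

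With 3 samples a group the precision is limited. Genes at a few CPM, such as *Fdps*, *Idi1*, *Elovl6* and *Sqle*, rested on few reads, and a difference not called here is not shown to be absent.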
